A study of Mus musculus with 158 samples.

Results

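Gene expression in the mouse lung was read from the 4 RNA-seq tables labelled Lung and set against the 4 tables labelled Liver, the 4 labelled Kidney and the 5 labelled B cell, which makes 17 RNA-seq tables of 158 samples in the series. The tables were chosen by their tissue label and no measured value was used. The animals were F1 hybrids of C57BL/6J (B6) with another strain or species. Lung replicate 1 was B6xPWK, replicates 2 and 3 were B6xSPRET and replicate 4 was B6xC3H. Liver and kidney each had 4 tables of the same hybrids, in the same numbers, and the B cell tables were 1 labelled B6xCAST, 2 B6xPWK, 1 B6xC3H and 1 B6xSPRET. No group carried a transgene or a treatment according to the labels. All lobes of the lungs, whole liver and both kidneys were taken, so that each of these tables is a mixture of cell types, whereas the B cells were obtained from femoral marrow of 8-week-old females by depleting cells with CD43 or CD11b. Total RNA libraries keep the strand of the transcript, and each table gives an expected count for 53715 genes. Nothing in the labels says that all tables of a group came from separate animals, and p-values therefore measure only the spread between these samples, which may be technical.

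The gas-exchange surface of the lung is lined by flat alveolar type 1 cells and by alveolar type 2 cells, which secrete surfactant, the mixture of lipids and proteins that lowers surface tension. The conducting airways are lined by secretory club cells and by ciliated cells, whose motile cilia are driven by axonemal dyneins. Beneath both epithelia lie a dense capillary endothelium, fibroblasts and smooth muscle, with macrophages resident in the airspace. The factor Nkx2-1 is required for lung epithelium, and Shh from the epithelium and Fgf10 from the mesenchyme are the textbook signals of lung branching.

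The tables appear to count the strand opposite to the transcripts, so each gene that was high in lung was read together with the gene that overlaps it, or lies nearest to it, on the other strand. For pairs of a protein-coding gene and a noncoding gene with overlapping exons and at least 10 counts between them, the noncoding gene had more counts in 76.4% of 1584 pairs in the B6xPWK lung library, and in 79.6% of 1448, 78.0% of 1420 and 76.8% of 1416 pairs in lung replicates 2 to 4. Cyp2f2, a cytochrome P450 of club cells, was a clear case. Its own levels in lung replicates 1 to 4 were 3.15, 1.98, 7.77 and 15.7 CPM (counts-per-million of the TMM-scaled library size), and those of the antisense gene Gm15883, which overlaps it, were 1159.9, 1103, 944 and 1233 CPM. In the same way Ace, the angiotensin-converting enzyme of lung capillaries, stood at 7.88, 3.97, 17.5 and 9.81 CPM, and its antisense gene Gm11651 at 197, 171, 241 and 222 CPM. The setting of strand in the counting step is not given in the sources used here, and its part in these counts was not tested. Since exons of each pair share the same bases, the 2 sequences below are shown to mark where such counts can arise. Capitals mark bases that lie in exons of both genes of a pair, lower case marks 10 flanking bases on each side, and both are on the forward strand of mm10 (GRCm38.p6), which is the coding strand of Ace and of Cyp2f2. The stretches are chr11:105972361-105972533 (173 bases) and chr7:27124854-27124987 (134 bases). All of these shared bases are coding sequence of Ace or Cyp2f2 and none lie in a UTR.
Ace and Gm11651: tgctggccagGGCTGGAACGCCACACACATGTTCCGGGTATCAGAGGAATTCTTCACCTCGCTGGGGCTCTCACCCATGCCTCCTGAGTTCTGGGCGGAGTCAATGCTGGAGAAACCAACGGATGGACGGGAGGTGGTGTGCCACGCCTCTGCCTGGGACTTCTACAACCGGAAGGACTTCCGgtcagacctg
Cyp2f2 and Gm15883: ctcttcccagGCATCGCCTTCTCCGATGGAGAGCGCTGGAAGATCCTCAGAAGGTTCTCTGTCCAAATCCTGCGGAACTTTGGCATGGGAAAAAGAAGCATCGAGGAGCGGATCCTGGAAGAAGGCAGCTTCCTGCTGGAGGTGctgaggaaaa

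**Figure D1:**
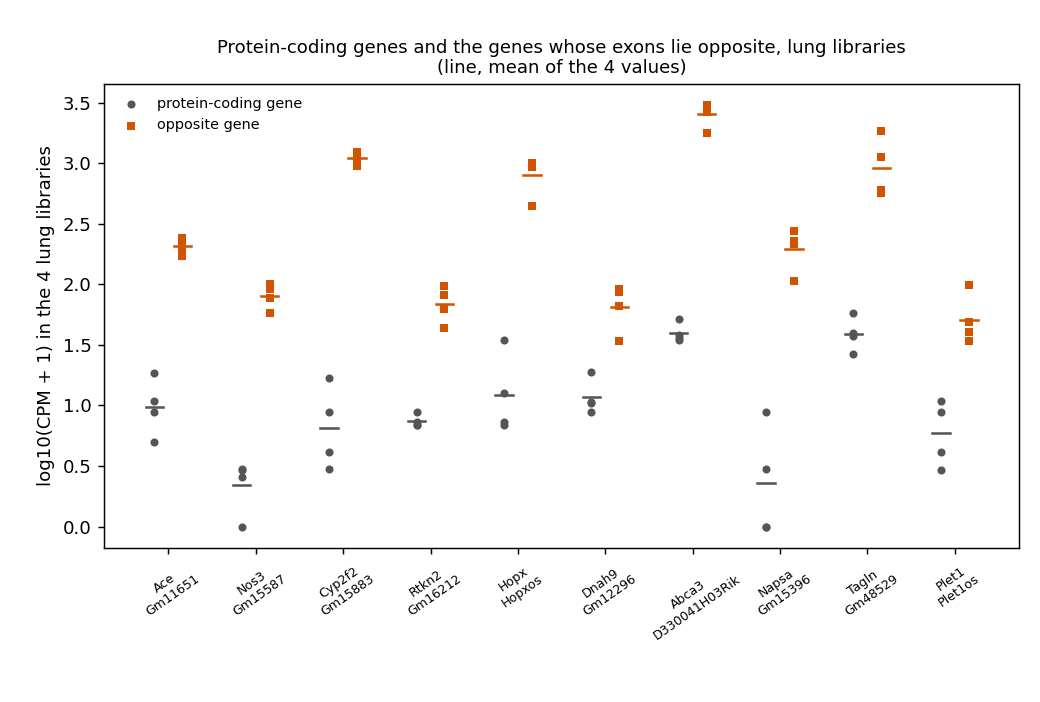
Levels of 10 protein-coding genes and of the genes with exons opposite theirs in the 4 lung libraries, as log10(CPM + 1) on the vertical axis. Each point is 1 library and the line marks the mean of the log values. In lung Gm15883 stood at 944 to 1233 CPM and Cyp2f2 at 1.98 to 15.7 CPM, and Gm11651 at 171 to 241 CPM and Ace at 3.97 to 17.5 CPM.

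The deposited lung tables held total expected counts of 380115 to 387504, against 283725 to 322257 in liver, 437171 to 551273 in kidney and 285191 to 809337 in B cells. Between 13349 and 15152 genes had a count in a lung library. Across genes, log-scale levels of 2 lung libraries correlated with r of 0.862 to 0.926, whereas r was 0.456 to 0.62 between lung and kidney, 0.339 to 0.53 between lung and liver and 0.387 to 0.48 between lung and B cell libraries. These are descriptions over genes, which are not independent replicates. The B6xPWK lung library stood apart from the other lung libraries in its TMM scaling factor of 1.88, against 1.41 to 1.45. Liver libraries had lower TMM factors, from 0.371 to 0.674. Fewer cells of a type and less RNA per cell cannot be told apart in such bulk samples.

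Of 4479 genes that passed the filter on low counts, 1325 were higher in lung than in the mean of the 3 other tissues (29.6%) and 747 were lower (16.7%), at an adjusted p under 0.05 in edgeR's quasi-likelihood test with Benjamini-Hochberg adjustment. That mean averages the fitted levels of the 3 tissues on the log scale, so a tissue near 0 lowers it strongly. With the 13 other libraries as 1 group, 458 genes were higher and 197 lower. Against liver, 1373 genes were higher in lung (30.7%) and 924 lower (20.6%). Against kidney, 970 were higher (21.7%) and 889 lower (19.8%). Against B cells, 1317 were higher (29.4%) and 1128 lower (25.2%). A total of 457 genes were higher in lung in all 3 pairwise comparisons (10.2%) and 96 were lower in all 3 (2.14%). In 64 genes (1.43%) every lung library was below every other library, and all 64 were called lower. Of the 1325 higher genes, 1283 had a positive difference within each of the B6xPWK, B6xSPRET and B6xC3H hybrids (1780 of all genes tested did), and 730 of the 747 lower genes had a negative difference within each (1301 of all). The calls came from these same libraries, so the counts within hybrids are a description and no replication.

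The balance of the calls depended on the scaling. In the comparison with the mean of the other tissues 63.9% of the calls were higher in lung with TMM, 73.4% with RLE size factors (1520 higher and 550 lower), 86.0% with limma on log2(TPM + 1) and 89.3% when the 10 highest genes of the table were left out of the library sizes (2094 and 252). The median log2 fold change of all genes tested was 0.15 with TMM and 0.21 higher with RLE, 0.65 higher without the 10 highest genes and 0.70 higher with limma. Against kidney the share higher in lung was 52.2% with TMM, 64.3% with RLE, 63.8% with DESeq2, 78.8% without the 10 highest genes and 82.1% with limma. Against liver it was 59.8% with TMM, 86.5% without the 10 highest genes and 90.5% with limma, and against B cells 53.9% to 58.8% under these settings. The median log2 fold change against liver was 1.19 higher without the 10 highest genes than with TMM, and 1.35 higher with limma. Differences of the size of these shifts therefore have no firm direction.

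**Figure D2:**
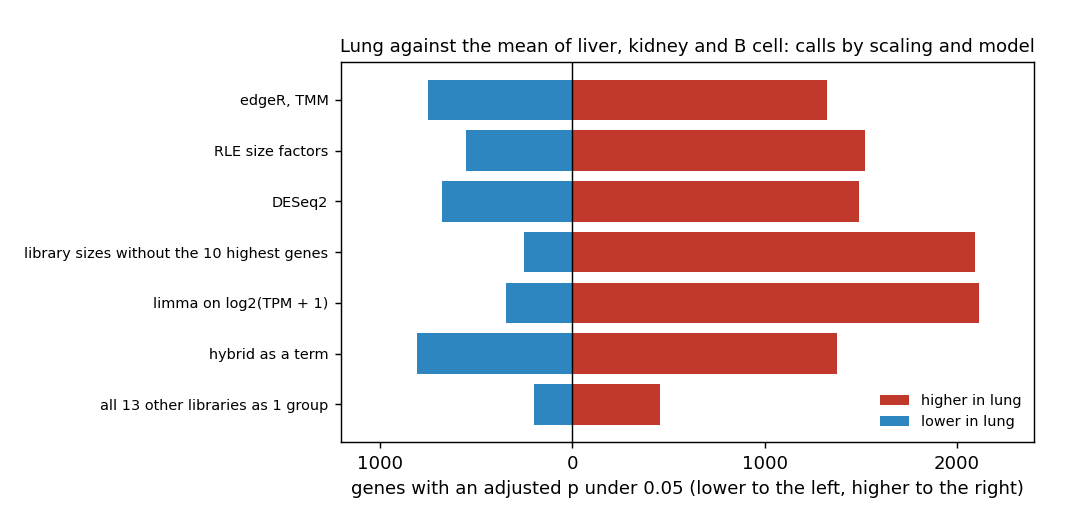
Number of genes called higher and lower in lung than in the mean of the other tissues under each scaling or model (bars from 0, lower genes to the left and higher genes to the right). The bars show 1325 higher and 747 lower genes with TMM, and 2094 higher and 252 lower when the 10 highest genes are left out of the library sizes.

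In 435 of the 4479 genes (9.71%) every lung library was above every liver, kidney and B cell library and the gene was called higher, and these are referred to as lung-high genes. With CPM of all counts and no TMM, a setting chosen after seeing the data, the same definition gave 676 genes, 431 of them among the 435. Since this separation was read from the same values, the levels that follow are a description. Over all 28412 genes with a count, 919 (3.23%) had such a separation. The lung-high genes with an annotation numbered 434, and 309 of them had a mean of at least 50 CPM in lung. Their lung means ran from 22.7 to 5335 CPM with a median of 73.2 CPM. The tissue with the next highest mean was kidney for 280 of them, B cells for 86 and liver for 68, and 14 had a count of 0 in all 13 other libraries. The ratio of the lung level to the pooled level of the 13 other libraries, with a group at 0 set to a floor of 3 counts, had a median of 9.54 over the 435 genes and 0.79 over all genes tested. The coefficient of variation between the 4 lung libraries had a median of 29.9%, against 35.5% over all genes tested. The highest lung library was B6xPWK for 192 of the 434 genes, B6xC3H for 103 and the B6xSPRET libraries for 50 and 89. Without the B6xPWK lung library 506 genes met the definition, all 435 among them. Leaving out a lung library cannot undo a separation of the libraries, so this is no test of the set.

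Lung-high genes were less often protein-coding than the genes tested as a whole and more often overlapped a gene on the other strand by their bodies only. Of the 434 genes, 38.0% were protein-coding (57.3% of all tested) and 30.6% were annotated as antisense (19.4%). Exons of another gene lay opposite the exons of 224 of them (51.6%, with an exact 95% interval for counting of 46.8 to 56.4%), which is below the 62.6% of all genes tested. In a further 140 (32.3%) only the bodies of the genes overlapped, against 16.6% of all genes tested, and the remaining 70 (16.1%) had no overlap. Among genes lower in lung these shares were 77.6% with opposite exons and 5.35% with overlap of the bodies only. No test was made of these shares.

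**Figure D3:**
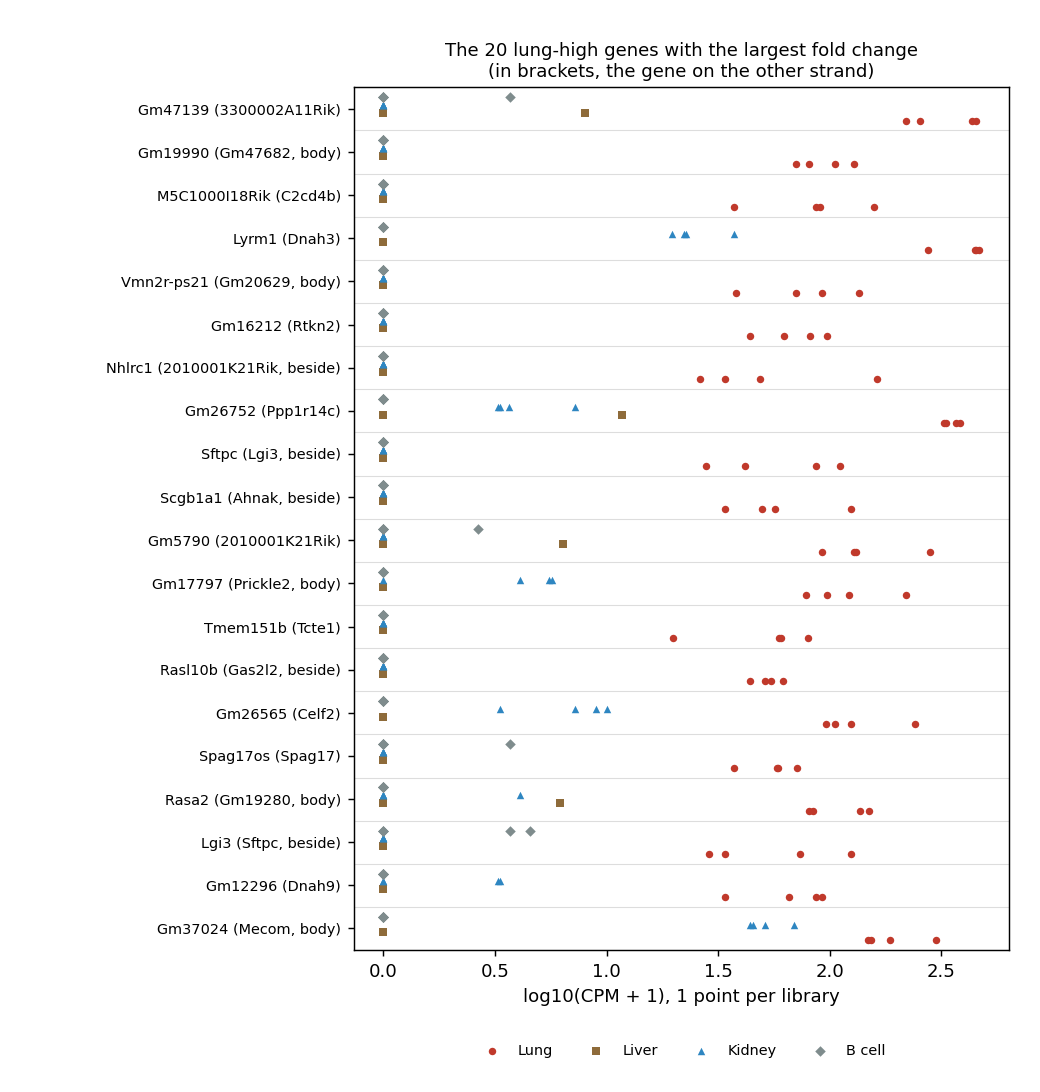
The 20 named lung-high genes, with log10(CPM + 1) on the horizontal axis and 1 point per library, coloured by tissue. The gene in brackets lies on the other strand: exons overlap unless it is marked body (the bodies overlap) or beside (nearest gene). For each gene the 4 lung points lie above the points of the 13 other libraries, many of which are at 0.

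Among the 20 lung-high genes with the largest fold change, 3 have exons opposite Dnah3, Dnah9 or Spag17, which are known from motile cilia. Of these only Dnah9 was on the ciliated list, the grouping was made after the values were seen, and it was not tested. Lyrm1 (chr7:119895861-119956963, + strand), which encodes a LYR motif protein, shares 1506 exonic bases with Dnah3, an axonemal dynein heavy chain on the other strand. Lyrm1 was at 274, 448, 449 and 465 CPM in lung replicates 1 to 4, at 18.7 to 36.3 CPM in kidney and at 0 in every liver and B cell library. This was 16.1-fold above kidney (95% counting interval 11.7 to 22.9), at least 83.4-fold above liver and at least 427-fold above B cells, with an edgeR adjusted p of 1.19e-11 against the mean of the other tissues. These intervals and bounds cover counting error only. Dnah3 itself was at 5.95 to 17.7 CPM in lung and at up to 15.5 CPM in kidney, so that the groups overlapped.

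Gm12296 (chr11:66168035-66301237, + strand) shares 495 exonic bases with Dnah9, another axonemal dynein, and was at 33.1, 91.3, 85.5 and 64.8 CPM in lung. Only 2 counts were found in the 13 other libraries, both in kidney, which gives a ratio of 179 with a counting interval of 48.7 to 1494 (edgeR adjusted p = 1.92e-08). Spag17os, opposite the central-pair gene Spag17, was at 36.2, 57.5, 69.9 and 56.9 CPM in lung and had 1 count in the other libraries (ratio 291, interval 51.3 to 11600, edgeR adjusted p = 1.45e-08). Spag17 itself was highest in B cells, with 23.0 to 74.4 CPM against 7.77 to 28.4 CPM in lung, and was not called (edgeR adjusted p = 0.894). Rasl10b, a small GTPase gene 863 bases from Gas2l2, which encodes a cytoskeletal protein of ciliated cells, was at 50.4, 53.6, 42.7 and 60.8 CPM in lung and at 0 in all other libraries (at least 93.0-fold higher, edgeR adjusted p = 7.22e-08). Of the 14 genes of the ciliated list none passed the filter under its own name. Tppp3, at 5.89 to 11.9 CPM, was the only member whose lung libraries all lay above the other 13.

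Genes of surfactant were found in lung under their own names, at low levels. Sftpc (chr14:70520949-70524081, - strand), which encodes surfactant protein C, has no gene overlapping it on the other strand. It was at 26.8, 85.3, 40.8 and 109.9 CPM in lung replicates 1 to 4, or 137 counts in all, and at 0 in the 13 other libraries, at least 114-fold higher (edgeR adjusted p = 3.9e-07). Lgi3, a secreted leucine-rich repeat protein gene 6604 bases away on the other strand, was at 123, 27.8, 33.0 and 72.6 CPM in lung and had 3 counts elsewhere (ratio 121, interval 40.7 to 594, edgeR adjusted p = 1.95e-07). The B6xPWK library was thus the lowest for Sftpc and the highest for Lgi3.

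Sftpa1, Slc34a2 and Cxcl15 were too low to be tested but were seen in lung only. Sftpa1, for surfactant protein A, was at 11.03, 17.9, 15.5 and 33.4 CPM, Slc34a2, the phosphate transporter of type 2 cells, at 14.2, 17.9, 11.7 and 29.4 CPM, and the lung chemokine Cxcl15 at 11.03, 17.9, 17.5 and 11.8 CPM, with 0 counts in the 13 other libraries for each. In all, 5 of the 12 members of the surfactant and type 2 list had every lung library above the others. Abca3, the lipid transporter of lamellar bodies, was tested under its own name at 33.7 to 50.4 CPM and was not called against the mean of the other tissues (log2 fold change 0.28 ± 0.32 SE, edgeR adjusted p = 0.493). It was lower in lung than in B cells, which were at 73.1 to 138 CPM (-1.50 ± 0.33, edgeR adjusted p = 0.000473), and higher than in liver, at 0 to 28.2 CPM (1.78 ± 0.52, edgeR adjusted p = 0.0066). D330041H03Rik, which shares 914 exonic bases with Abca3, was at 1760.4, 2649, 3007 and 2958 CPM in lung, with 3 of the 4 values within the range of kidney (2605 to 3387 CPM) and that of B6xPWK below it, above B cells (183 to 340.2 CPM), and was called higher in the mean comparison (log2 fold change 1.23 ± 0.24, edgeR adjusted p = 0.000158). With the 13 other libraries as 1 group D330041H03Rik was not called (edgeR adjusted p = 0.488). Gm15396, opposite the aspartic protease gene Napsa, was at 106 to 276 CPM in lung and 3264 to 8044 CPM in kidney, and was lower in lung than in kidney (log2 fold change -4.73 ± 0.47, edgeR adjusted p = 3.24e-08). Over the list, 1 of 2 members tested and 1 of 2 opposite genes tested were higher in lung than in the mean of the other tissues (29.6% of all genes tested were), too few for a statement on the list, with median pooled ratios of 57.1 and 1.06.

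Open chromatin near the starts of these genes was read from DNase-seq, in which hotspots are regions of enriched DNase I cleavage. A pooled set of hotspots had been called for each of 5 hybrids in each of 4 tissues. Within 2 kb of the start of Sftpa1, Sftpc, Sftpd and Cxcl15 a hotspot was found in all 5 lung sets and in none of the 15 other sets. Of the other 8 members of the surfactant and type 2 list, Slc34a2 had no hotspot in any of the 20 sets, Abca3, Muc1 and Lpcat1 had one in all 20, and Sftpb, Napsa and Chil1 had one in 5 lung sets and in 10, 12 and 6 others. Lamp3 and, from the type 1 list, Aqp5 had one in 5 lung sets and in 1 other set, and Nkx2-1 in 5 lung sets and 2 others. The 250 bases before the RefSeq starts of Sftpa1 and Cxcl15 are printed as the upstream sequence of genes whose RNA and hotspots were both seen in lung only, with capitals for matches to CAAGTG or its reverse complement CACTTG, letters known for Nkx2-1. They lie on the forward strand at chr14:41131538-41131787 and chr5:90794284-90794533 of GRCm38.p6.
Sftpa1: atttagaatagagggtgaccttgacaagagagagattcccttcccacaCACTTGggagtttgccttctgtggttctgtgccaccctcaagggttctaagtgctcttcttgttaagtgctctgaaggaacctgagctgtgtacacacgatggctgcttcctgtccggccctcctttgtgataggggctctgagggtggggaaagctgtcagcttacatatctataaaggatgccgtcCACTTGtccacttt
Cxcl15: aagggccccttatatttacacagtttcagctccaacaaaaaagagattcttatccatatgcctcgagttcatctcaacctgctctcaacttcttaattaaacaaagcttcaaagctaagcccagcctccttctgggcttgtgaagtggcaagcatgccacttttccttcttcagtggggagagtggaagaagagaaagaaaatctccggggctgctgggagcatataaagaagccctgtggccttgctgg
Sftpa1 held 2 matches, beginning 202 and 14 bases before the start, and Cxcl15 held 0. A match to these letters on either strand was found in 11.6% of the same windows of 32851 RefSeq promoters. The forkhead letters TGTTTAC, or GTAAACA on the other strand, were in neither window and in 3.17% of all. A match is a description and not evidence of binding.

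Alveolar type 1 genes had the highest share of members above the other tissues. All 5 members that passed the filter were called higher in lung (29.6% of all genes tested were), and 8 of the 11 members, tested or not, had every lung library above the others. Ager, Aqp5, Emp2 and Limch1 passed the filter only through their lung counts, so these calls are no support for the list. Ager (chr17:34597862-34600936, + strand), the receptor for advanced glycation end products and a standard marker of these cells, was at 29.9, 69.5, 48.6 and 78.5 CPM in lung and at 0 to 8.79 CPM elsewhere, 17.4-fold higher with a counting interval of 10.4 to 30.9 (edgeR adjusted p = 6.45e-08). Rnf5, 155 bases from Ager on the other strand, was at 7.85 to 28.4 CPM in lung and at most 7.04 CPM elsewhere. Aqp5, the water channel of these cells, was at 18.9, 27.8, 19.4 and 35.3 CPM in lung and at 0 in all others (at least 44.8-fold, edgeR adjusted p = 1.07e-06). Emp2, a tetraspan membrane protein, was at 31.5, 91.3, 146 and 232 CPM in lung. It had up to 42.2 CPM in 1 liver library and 0 to 5.31 CPM in the other 12, so that the groups overlapped (pooled ratio 58.6, interval 32.2 to 119, edgeR adjusted p = 1.37e-07).

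The scaffold gene Akap5 was at 83.5, 105, 83.5 and 86.4 CPM in lung, at 24.3 to 39.2 CPM in B cells and at 6.21 to 18.7 CPM in kidney, with no overlap. It was 6.996-fold above kidney (interval 4.41 to 11.7) and 3.03-fold above B cells (2.36 to 3.92), both called with edgeR adjusted p of 6.09e-06 and 0.000149. Limch1, an actin-associated gene, was at 20.5 to 45.1 CPM in lung and at most 9.35 CPM elsewhere (edgeR adjusted p = 4.53e-07). The 5 tested members had pooled ratios of 4.22 to 58.6 with a median of 17.4.

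A further pair of members of that list were read through their opposite genes. Gm16212 (chr10:68025450-68026626, - strand) shares 216 exonic bases with Rtkn2, a marker of type 1 cells, and was at 80.4, 61.5, 42.7 and 96.2 CPM in lung and 0 elsewhere (at least 127-fold, edgeR adjusted p = 6.2e-08). Rtkn2 under its own name was at 5.89 to 7.77 CPM in lung and also at 0 elsewhere. Hopxos, opposite the homeodomain gene Hopx, was at 443, 1000.1, 944 and 936 CPM in lung, but liver reached 989 CPM, and it did not differ from liver beyond the spread (log2 fold change 0.64 ± 0.40, edgeR adjusted p = 0.185). It was above kidney by 4.42 ± 0.47 and above B cells by 3.96 ± 0.41 on the log2 scale (edgeR adjusted p = 8.35e-08 and 1.77e-08).

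Of the club cell genes, Scgb1a1 (chr19:9083636-9087958, - strand), the major secretory protein of these cells, was at 33.1, 55.6, 48.6 and 124 CPM in lung and at 0 in the 13 others, at least 114-fold higher (edgeR adjusted p = 2.94e-07). Its nearest opposite gene Ahnak, 6722 bases away, was at 72.5 to 113 CPM in lung and at most 16.2 CPM elsewhere, and was also called higher (log2 fold change 3.53, edgeR adjusted p = 6.45e-08). Gm15883, opposite Cyp2f2, was 159-fold above kidney (interval 88.5 to 318) and 1184-fold above B cells (405 to 5747). Against liver it was 1.02-fold with an interval of 0.937 to 1.11, and the fitted log2 difference was 0.15 ± 0.47 (edgeR adjusted p = 0.805), as liver ranged from 495 to 1546 CPM. These values hold for the TMM scaling only, since the median against liver moved by up to 1.35 on the log2 scale between scalings. The interval covers counting error only. Cbr2, a carbonyl reductase, was at 9.46 to 25.5 CPM in lung and at most 2.34 CPM elsewhere.

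**Figure D4:**
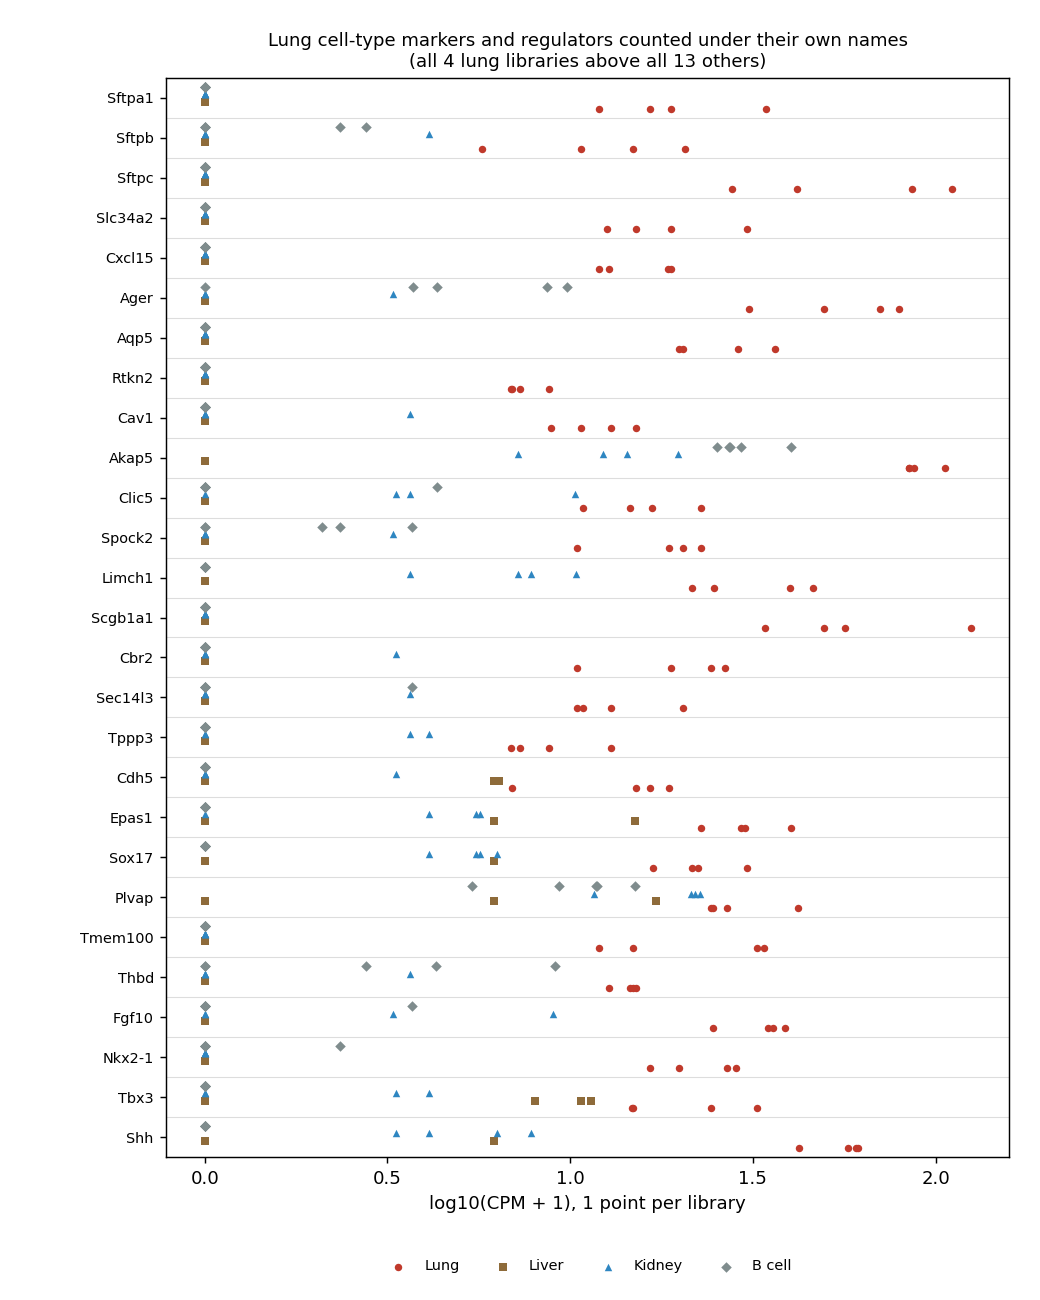
The 27 members of the lung cell lists, under their own names, whose 4 lung libraries all lay above the 13 other libraries, with log10(CPM + 1) on the horizontal axis and 1 point per library, coloured by tissue. The members are grouped by list: 5 of surfactant and type 2, 8 of type 1, 3 of club, 1 of ciliated, 6 of endothelial, 1 of mesenchymal cells and 3 lung factors and signals.

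Endothelial genes moved in both directions. Of the 4 members tested, Epas1, which encodes the oxygen-regulated factor HIF-2 alpha, and Plvap, a protein of endothelial diaphragms, were higher in lung, and the TGF-beta receptor genes Acvrl1 and Eng were lower (median pooled ratio of the 4, 1.4). Epas1 was at 28.4, 21.8, 29.1 and 39.3 CPM in lung and at most 14.1 CPM elsewhere (pooled ratio 19.9, interval 9.52 to 48.1, edgeR adjusted p = 7.24e-07). Plvap was at 41.0, 25.8, 23.3 and 23.6 CPM in lung and at 10.6 to 21.7 CPM in kidney, and against kidney alone it was not called (log2 difference 0.62 ± 0.46, edgeR adjusted p = 0.294). Acvrl1 was at 4.73 to 9.92 CPM in lung and 56.3 to 156 CPM in liver (log2 difference -3.99 ± 0.50, edgeR adjusted p = 6.93e-07). Eng was at 4.73 to 7.94 CPM in lung and 75.4 to 342 CPM in liver (-5.00 ± 0.55, edgeR adjusted p = 9.89e-08). Both are to be read with the genes opposite them. With the 13 other libraries as 1 group, Plvap, Acvrl1 and Eng were not called (edgeR adjusted p = 0.0933, 0.097 and 0.122).

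The 4 tested genes opposite endothelial members were all higher in lung than in the mean of the other tissues (29.6% of all genes tested were), with a median pooled ratio of 4.11. All 4 were higher than in B cells, but only 2 were higher than in liver and 2 than in kidney. With the 13 other libraries as 1 group, Gm15587, Fpgs and Gm11651 were not called (edgeR adjusted p = 0.425, 0.393 and 0.0735). Gm11651, opposite Ace, was 3.01-fold above kidney (interval 2.43 to 3.75, edgeR adjusted p = 0.00133), where it was at 39.7 to 90.3 CPM, and at least 43.1-fold above liver and at least 220-fold above B cells, where it was at 0. Gm15587, opposite the nitric oxide synthase gene Nos3, was at 56.7, 75.4, 91.3 and 100.1 CPM in lung. It was at 46.6 to 69.0 CPM in kidney and 7.04 to 80.8 CPM in liver, and differed from neither beyond the spread (edgeR adjusted p = 0.452 and 0.244), but was at 0 in every B cell library. Fpgs, a folate enzyme gene whose end overlaps Eng by 61 bases, was at 52.0, 19.8, 50.5 and 47.1 CPM in lung and differed from B cells only (log2 difference 6.18 ± 0.73, edgeR adjusted p = 1.38e-07), with liver and kidney differences of 0.40 ± 0.54 and 0.50 ± 0.48 that were not called. Agpat2, a lipid enzyme gene overlapping the vascular gene Egfl7 by 64 bases, was at 115, 65.5, 40.8 and 45.1 CPM in lung and was above each tissue (against kidney 1.62 ± 0.40, edgeR adjusted p = 0.00215). Gm16031, opposite Acvrl1, did not pass the filter and was at 15.7 to 47.3 CPM in lung and at most 4.67 CPM elsewhere, the opposite order to Acvrl1 itself. The vascular genes Tmem100, Sox17, Cdh5 and Thbd, also untested, had every lung library above the others.

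In the mesenchymal list only Fgf10 was tested. It was at 37.8, 33.7, 34.96 and 23.6 CPM in lung and at most 7.97 CPM in the other libraries (pooled ratio 35.4, interval 14.5 to 112, edgeR adjusted p = 2.96e-07). Fgf10 shares 123 exonic bases with the antisense gene Gm16263, which was at 0 in every library. Which strand gave the Fgf10 counts was not tested. The collagen, elastin and other matrix genes of the list were below the filter under their own names. Gm30003, opposite the elastin gene Eln, and Gm42802, opposite the receptor gene Pdgfra, were untested at 15.5 to 57.5 and 9.71 to 29.9 CPM in lung and at most 3.10 and 5.19 CPM elsewhere. Of the 20 members under their own names, 1 had every lung library above the others.

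For smooth muscle the strands gave different pictures. Tagln (chr9:45929619-45936058, - strand), an actin-binding protein of smooth muscle, was at 36.2, 25.8, 38.8 and 56.9 CPM in lung, 19.4 to 59.2 CPM in liver, 30.4 to 61.2 CPM in kidney and 30.0 to 51.4 CPM in B cells, so that lung overlapped each other tissue (log2 fold change -0.05 ± 0.30, edgeR adjusted p = 0.921). Gm48529, which lies within it on the other strand and shares 1241 exonic bases with it, was at 567, 1859, 1129 and 603 CPM in lung, 379 to 616 CPM in kidney, 91.5 to 151 CPM in liver and 4.06 to 13.3 CPM in B cells. It was 2.11-fold above kidney (interval 1.94 to 2.30, edgeR adjusted p = 0.0168), 8.29-fold above liver and 124-fold above B cells. With limma on log2(TPM + 1) the Tagln difference turned to 0.82 (adjusted p = 0.0476), a scaling in which the median of all genes was also 0.70 higher. Pcsk7, a protease gene whose end overlaps that of Tagln, was at 23.6 to 39.4 CPM in lung and was not called (edgeR adjusted p = 0.992). None of the 9 members under their own names had every lung library above the others.

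Of the lung factors and signals 4 of 28 genes were tested, and Shh, Foxf1 and Foxa1 were higher in lung than in the mean of the other tissues, as were 29.6% of all genes tested (median pooled ratio of the 4, 10.7). Shh and Foxf1 passed the filter only through their lung counts, so this count is no support for the list. Shh (chr5:28456815-28467256, - strand) was at 56.7, 59.5, 60.2 and 41.2 CPM in lung and at most 6.80 CPM in the other libraries (pooled ratio 36.7, interval 18.0 to 87.1, edgeR adjusted p = 4.52e-09). It shares 446 exonic bases with the antisense gene 9530036O11Rik, which was at 1.58 to 5.95 CPM in lung and at most 2.34 CPM elsewhere. Which strand gave the Shh counts was not tested. Foxf1, a forkhead factor of lung mesenchyme, was at 18.9, 23.8, 27.2 and 29.4 CPM in lung, with 19.4 CPM in 1 liver library (edgeR adjusted p = 8.15e-07). Foxa1, a forkhead factor shared by liver and lung, was at 18.9 to 29.8 CPM in lung and 20.7 to 151 CPM in liver, and was lower in lung than in liver (log2 difference -1.51 ± 0.55, edgeR adjusted p = 0.0284). That difference is close in size to the median shift of 1.35 between scalings against liver. Foxa1 had 0 counts in B cells, which lowers the log-scale mean. With the 13 other libraries as 1 group it was not called (log2 fold change 0.347, edgeR adjusted p = 0.873). Gli1, a target of Shh, was at 3.88 to 17.3 CPM in lung and 61.6 to 106 CPM in B cells and was called lower against B cells (edgeR adjusted p = 1.2e-05). It shares 265 exonic bases with the antisense gene Gm47200, which was at 3.15 to 7.94 CPM in lung, 58.2 to 178 CPM in liver and 0 in B cells. Which strand gave the Gli1 counts was not tested, so they are not a measure of Gli1 transcripts. Nkx2-1, below the filter, was at 18.9, 25.8, 15.5 and 27.5 CPM in lung and had a single count elsewhere, at 1.35 CPM in a B cell library. Hotspots were near the start of 9530036O11Rik, which lies opposite Shh, in 5 of 5 lung sets and no other, while the start of Shh itself had one in 2 lung sets and 10 others.

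Over the 8 lung lists, 27 of 132 members under their own names (20.5%) had every lung library above the other 13, against 3.23% of all genes with a count and 2 of 76 members (2.63%) of the 9 lists for other cells. The groups also differed in level, with median lung values of 4.17, 0.99 and 0.49 CPM in the same order. The part of level in the shares was not tested. These lists were drawn up with earlier results of these data known, and no test was made of the shares.

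The other lung-high genes with large fold changes were mainly noncoding genes or pseudogenes within or beside genes not on any list. Gm47139 (chr12:99359871-99362028, - strand), which shares 346 exonic bases with the antisense gene 3300002A11Rik, had the largest fitted fold change. It was at 217, 435, 453 and 253 CPM in lung and had 2 counts in all other libraries (ratio 895, interval 247 to 7406, edgeR adjusted p = 2.36e-12). Gm26752, opposite the phosphatase inhibitor gene Ppp1r14c, was at 325, 381, 332 and 365 CPM in lung and had 7 counts elsewhere (ratio 269, interval 130 to 670, edgeR adjusted p = 1.88e-12). M5C1000I18Rik, opposite C2cd4b, was at 36.2 to 157 CPM and Gm19990 at 69.5 to 128 CPM in lung, and both were at 0 elsewhere (at least 159-fold and 174-fold).

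Further genes at 0 in all 13 other libraries were Vmn2r-ps21 (36.9 to 133 CPM in lung), a pseudogene inside Gm20629, Nhlrc1 (25.2 to 161 CPM), the ubiquitin ligase malin, and Tmem151b (18.9 to 78.5 CPM), whose exons overlap the sperm tail gene Tcte1. Tcte1 itself was at 31.7 to 53.7 CPM in kidney and at most 1.94 CPM in lung. Gm5790, a processed pseudogene near Nhlrc1 on the same strand, was at 91.4, 127, 130.1 and 281 CPM in lung. Like Gm17797 (77.4 to 217 CPM), another processed pseudogene, it may share reads with its parent gene, and both values are uncertain. The Ras regulator Rasa2 was at 79.6 to 149 CPM in lung with 2 counts elsewhere (ratio 305, interval 83.5 to 2533), Gm26565, opposite the RNA-binding protein gene Celf2, at 95.2 to 239.5 CPM with 10 counts elsewhere (ratio 78.7, interval 42.2 to 166), and Gm37024, inside Mecom, at 147 to 299 CPM. Gm37024 was 4.00-fold above kidney (interval 3.14 to 5.15) and at 0 in liver and B cells.

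The pairwise comparisons named further genes. Against B cells, Gm26719, opposite Cped1, was at 1017, 1714, 2447 and 2938 CPM in lung and had 2 counts in B cells. It was also above kidney (log2 difference 2.79 ± 0.39, edgeR adjusted p = 4.14e-06) but did not differ from liver beyond the spread (0.59 ± 0.36, edgeR adjusted p = 0.18). Clec9a, a C-type lectin of dendritic cells, ends 9 bases from Clec1a, a lectin gene of endothelium on the other strand. Clec9a was at 777, 839, 1428 and 1509 CPM in lung, 32.3 to 119 CPM in liver, 52.1 to 91.1 CPM in kidney and at most 1.66 CPM in B cells, and was above each (log2 fold change against the mean of the other tissues 6.13 ± 0.30, edgeR adjusted p = 6.19e-13). Clec1a itself was at 89.8, 55.6, 66.0 and 90.3 CPM in lung and at most 49.2 CPM elsewhere.

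Against kidney, the lincRNA gene 4632428C04Rik was at 142, 133, 167 and 300.3 CPM in lung and 0 in kidney, but was as high in B cells (115 to 189 CPM, log2 difference 0.32 ± 0.30, edgeR adjusted p = 0.395). Gm49540, opposite the myoglobin gene Mb, was at 89.8, 439, 248.6 and 86.4 CPM in lung and at 0 in kidney and B cells, while the liver libraries were at 1368, 0, 87.3 and 0 CPM.

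The named genes with the largest decreases in lung mostly lay opposite genes of liver or kidney metabolism or transport. They were picked by fold change among genes of at least 50 CPM over the other tissues. They do not describe all 747 genes called lower. Gm26697, opposite the fatty acid transporter gene Slc27a2, was at 6.30, 11.9, 19.4 and 13.7 CPM in lung, against 7237 to 17541 CPM in liver and 11720.3 to 14911 CPM in kidney (log2 differences -9.80 ± 0.75 and -10.00 ± 0.75, edgeR adjusted p = 5.2e-10 and 4.98e-10). B cells, at 0 to 19.97 CPM, did not differ from lung beyond the spread (edgeR adjusted p = 0.116). Prepl, whose exons overlap the amino acid transporter gene Slc3a1, was at 6.30 to 13.9 CPM in lung and 12416 to 26357 CPM in kidney. Gpr89, which overlaps the brush border scaffold gene Pdzk1, was at 5.83 to 19.8 CPM in lung and 19918 to 24013 CPM in kidney. D030055H07Rik, opposite the glycerate kinase gene Glyctk, was at 28.4 to 44.7 CPM in lung and below each of the other tissues (against B cells -2.83 ± 0.33, edgeR adjusted p = 1.43e-07).

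Other named low genes had the same order. Hcn3, overlapping the liver pyruvate kinase gene Pklr, was at 0 to 7.77 CPM in lung and 2209 to 2887 CPM in liver, and Sacm1l, overlapping the amino acid transporter gene Slc6a20b, at 0 in lung and 580.3 to 841 CPM in kidney (at least 503-fold lower in lung). The calls of mt-Nd4l, a mitochondrial subunit gene at 0 in 12 of 17 libraries, and of 4930402D18Rik, opposite A1bg, did not hold under each alternative (adjusted p of 0.104 for mt-Nd4l with DESeq2 and 0.0711 for 4930402D18Rik with edgeR without the B6xPWK lung library), though 4930402D18Rik was called lower against liver alone (0 in lung, 463 to 7577 CPM in liver, edgeR adjusted p = 2.17e-08). The call of Sacm1l in the mean comparison was lost without the B6xSPRET B cell library. With the 13 other libraries as 1 group, Sacm1l and Gpr89 were not called either (edgeR adjusted p = 0.0798 and 0.0544).

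Named pairwise, the genes lowest in lung against liver and against kidney had exons opposite protein-coding genes. Against liver, B430119L08Rik, opposite the alpha-1-antitrypsin gene Serpina1c, was at 0 to 19.4 CPM in lung and 51068 to 62775 CPM in liver (log2 difference -12.78 ± 0.91, edgeR adjusted p = 2.12e-10), and AW495222, opposite Dmgdh, a mitochondrial enzyme of choline breakdown, at 0 and 648 to 1249.8 CPM. Against kidney, Gm44588, opposite the uromodulin gene Umod, had 1 count in lung and was at 8779 to 19982 CPM in kidney (ratio 3.43e-05, interval 8.68e-07 to 1.91e-04). Arhgap4, overlapping the vasopressin receptor gene Avpr2, and Gm15962, opposite Keg1, were at 0 in lung and at 1056 to 1899.9 and 1507 to 2055 CPM in kidney. Against B cells, Gm12679, at 78.2 to 293 CPM in B cells, and C030013C21Rik, at 45.7 to 119 CPM, were at 0 in lung. Gm12679 lies opposite the antisense gene Gm12493. C030013C21Rik overlaps no gene on the other strand, and the nearest one, Cdk5r1, is 26226 bases away.

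Markers of other cells were low in the lung libraries under their own names. The summed level of the 10 hepatocyte genes was 0 to 3.88 CPM in lung, with 6 genes, among them Apoa1, Ttr and Cyp2e1, at 0 in all 4 libraries, and was up to 9011 CPM in liver. All 6 tested were lower in lung than in liver (20.6% of all genes tested were). The 10 B cell genes summed to 5.89 to 18.9 CPM in lung, 7 of them, Ighm and Igkc included, at 0, and to at most 189 CPM in B cells. Both members tested, Ighm and Ebf1, were lower in lung than in B cells (25.2% of all genes tested were). The genes opposite Pax5, a B cell factor, did carry counts in lung. Gm12462 was at 75.6, 17.9, 29.1 and 37.3 CPM in lung, at most 15.6 CPM in liver, at most 3.10 CPM in kidney and 567 to 1012 CPM in B cells. It was above kidney by 4.71 ± 0.72 (edgeR adjusted p = 1.27e-05) and below B cells by 4.35 ± 0.43 on the log2 scale (edgeR adjusted p = 8.05e-09). The 10 nephron genes summed to 7.85 to 33.7 CPM in lung, with 4 at 0, and both members tested, Kap and Lrp2, were lower in lung than in kidney (19.8% of all genes tested were). The tested members of the hepatocyte, B cell and nephron lists passed the filter through the tissue where they are high. Their calls are therefore no support for the lists.

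Markers of blood and immune cells had low counts in lung under their own names. Even in B cells the 10 B cell genes summed to at most 189 CPM under their own names. These sums therefore do not measure how many such cells the lungs held. The 14 alveolar macrophage genes summed to 13.6 to 31.8 CPM in lung, and none had every lung library above the others. Plet1os, opposite the surface protein gene Plet1, was at 39.4, 47.6, 33.0 and 98.1 CPM in lung and at 27.9 to 60.7 CPM in kidney, and was not called against kidney (edgeR adjusted p = 0.503). The erythroid gene Alas2, an enzyme of haem synthesis, was at 15.7 to 29.9 CPM in lung and was not called (edgeR adjusted p = 0.113). Apex2, a DNA repair gene whose body contains it on the other strand, was at 589, 744, 705 and 259 CPM in lung and was called higher (log2 fold change 1.68 ± 0.43, edgeR adjusted p = 0.00251), although liver reached 721 CPM. With the 13 other libraries as 1 group Apex2 was not called (edgeR adjusted p = 0.302). No gene of the 6 neutrophil, 8 T and NK cell or 5 thyroid and oesophagus markers passed the filter, and these lists summed to at most 9.92 CPM in any lung library.

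Heart muscle genes carried some counts. The 8 heart genes summed to 15.7 to 38.9 CPM in lung and at most 6.80 CPM elsewhere. Myh6, the atrial myosin heavy chain, was at 12.6, 7.94, 15.5 and 5.89 CPM and Tnnt2, cardiac troponin T, at 3.15 to 7.94 CPM, each above every other library. Gm13054, opposite the atrial peptide gene Nppa, was at 70.9, 149, 42.7 and 3.92 CPM in lung and 0 in the 13 others, so that the B6xC3H library was far below the rest. Whether heart tissue in the dissected lungs had a part in these values was not tested. Within 2 kb of their starts, hotspots were found in 5 lung sets and all 15 others for Myl4 and Tnni3, in 4 lung sets and 6 others for Actc1, in 3 and 8 for Myh6, in 1 and 6 for Myl7, in 1 and 2 for Tnnt2, in 0 and 6 for Nppa, in 0 and 2 for Sln, and in no set for Mb, which is not on the list.

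The 5 genes with the most counts in lung were not lung-specific. Gm37376, opposite the nuclear RNA gene Malat1, was at 39269, 26985, 14279 and 29157 CPM in lung and 19142 to 45918 CPM in kidney, and was not called in the mean comparison (log2 fold change 0.73 ± 0.38, edgeR adjusted p = 0.124). Gm20721, opposite Gnas, was at 6539 to 19366 CPM in lung and was not called either (edgeR adjusted p = 0.643). With TMM scaling, Gm26825, Gm17300, opposite the host RNA gene Snhg3, and Gm47428 were lower in lung than in liver (edgeR adjusted p = 0.00312, 0.0158 and 2.15e-05). The call of Gm17300 in the mean comparison (edgeR adjusted p = 0.0359) was lost when any lung library was left out (0.0613 to 0.106). Gm47428 overlaps a ferritin pseudogene, so its reads are uncertain.

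Hotspots gave a readout that the RNA comparison had not used. The exons of lung-high genes overlapped those of 217 different genes on the other strand. Of these 217, a median of 91.2% over the 5 lung sets had a hotspot no more than 2 kb from their start (87.6 to 94.9%), against 88.0% over the kidney sets (85.3 to 90.3%), 82.5% over liver (79.7 to 88.5%) and 68.2% over B cells (55.3 to 72.4%). Over all genes tested the order differed, with medians of 88.6% in lung, 89.3% in liver, 89.6% in kidney and 82.8% in B cells. Within the same hybrid, the share at lung-high genes was 4.2 to 12.9 percentage points higher in lung than in liver and 0.5 to 5.9 points higher than in kidney in all 5 hybrids. For all genes tested these differences ran from -3.1 to 2.2 and from -2.8 to 1.3 points. No test was made, since genes are not replicates.

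At the starts of the lung-high genes themselves the shares were lower, with medians of 72.4% in lung, 71.4% in kidney, 65.9% in liver and 53.9% in B cells, against 76.6%, 79.9%, 79.0% and 70.0% over all genes tested. In B6xC3H, whose lung set held the fewest hotspots of the 5 lung sets (152006, against up to 281978), the share was 3.7 points lower in lung than in kidney. B cell sets held 78387 to 156078 hotspots, fewer than kidney and liver sets, and the part of this in the B cell shares was not tested.

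**Figure D5:**
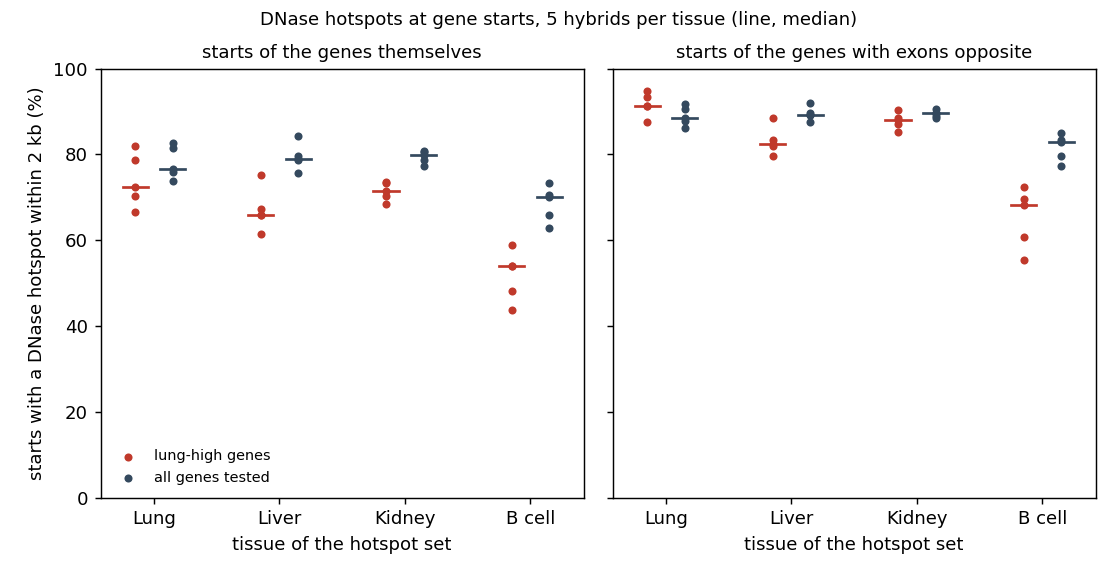
Percent of gene starts with a DNase hotspot within 2 kb (vertical axis), for lung-high genes and all genes tested, at the gene's own start and at the start of the gene opposite. Each point is 1 of the 5 hybrids of a tissue and the line is their median. At starts opposite lung-high genes the lung median is 91.2% and the B cell median 68.2%, and over all genes tested they are 88.6% and 82.8%.

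A hotspot seen in at least 4 lung sets and in no other set was rare. It was found at the own start of 7 of 434 lung-high genes (1.61%, against 0.425% of all genes tested) and at the opposite start of 3 of 217 (1.38%, against 0.301%). Among the pairs described above, Dnah3 had one in 4 lung sets and none elsewhere, and Gm20629, which contains Vmn2r-ps21, in 5 lung sets and none elsewhere. Gm11651 and 2010001K21Rik, which overlaps Gm5790, had one in 5 lung sets and 3 others. Most other starts were not so restricted. Hopx and Sftpb had a hotspot in 5 lung sets and 10 others, Dnah9, Spag17 and Cyp2f2 in 5 and 11, Ace in 5 and 14, and Rtkn2 and Tagln in all 20. The start of Pdzk1 had one in no lung set and in 10 liver and kidney sets, whereas that of Slc27a2 had one in all 5 lung sets.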

How the data were processed

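RNA-seq gene tables of 4 lung, 4 liver, 4 kidney and 5 B cell samples were compared, grouped by tissue label. The authors aligned total RNA reads to mm10 with STAR and made the tables with RSEM, according to the submitters' notes and the study's methods, and the RSEM version and the strand setting are not given in the sources used here. The deposited tables give an expected count, which is not normalized, and a TPM value for each gene. The hybrid of 1 B cell table differs between sources, and this table was used only for its tissue.

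After rounding to whole numbers, expected counts were compared with edgeR 4.0.16 (quasi-likelihood test, TMM, filterByExpr by tissue) in R 4.3.3, with Benjamini-Hochberg adjustment over 4479 genes and a threshold of 0.05. All 17 tables shared 1 fit, with contrasts of lung against the mean of the 3 other tissues and against each. The mean was taken over log-scale coefficients. The authors called DNase hotspots on samples pooled by hybrid and tissue, at an FDR of 5%, and the deposited −log10 FDR values were used only to filter and rank hotspots. Total counts of 283725 to 809337 per table limit the tests to genes that passed the filter. The scripts were tested on simulated data.

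Gene positions and opposite-strand exons came from GENCODE vM21 by gene ID (53620 of 53715 genes). The gene opposite was the one with the longest exon overlap, otherwise the longest overlap of bodies, otherwise the nearest. Promoter sequences came from RefSeq (GRCm38.p6), where 11 of 17 genes looked up were matched by symbol, and Sftpc, Scgb1a1, Rtkn2, Dnah3, Tagln and Clec1a were not.

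Named genes were the 20 called genes with the largest fold change with at least 50 CPM in lung and every lung table above all others, the 10 lowest with at least 50 CPM over the other tissue means, the 3 highest and 3 lowest of each pair with at least 50 CPM in the higher tissue, the 5 with the highest mean CPM in lung, and tested members of the cell type lists with the genes opposite them. Other genes named, among them untested list members, were chosen after their values were seen. Some genes that this rule names are not reported here. The members and lists were chosen with earlier results of these data known. Fold bounds used a floor of 3 counts over all libraries of a group, and counting intervals are exact (Clopper-Pearson, 95%). Alternatives were DESeq2 1.42.0, limma 3.58.1 on log2(TPM + 1), other size factors and filters, other windows and overlap rules, and leaving out each table in turn. Python 3.11.15 with scipy 1.17.1, numpy 2.4.6, pandas 2.3.3 and matplotlib 3.10.9 was also used.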

Additional observations from a re-analysis of the deposited data

Results flagged for a closer look

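In 12 of 76 groups of 4 lung values, 1 library lay farther from the other 3 than Dixon's 95% critical value allows. Chance alone is expected to do so in about 1 in 20 groups, and the values are not independent. In 9 of the 12 the library was the highest and in 3 the lowest.

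The B6xPWK library had a TMM factor of 1.88, the next being 1.45. It was the lowest for Lyrm1, at 274 CPM against 448 CPM or more, and for Hopxos, at 443 CPM against 936 CPM or more, and the highest for Plvap, at 41.0 CPM against at most 25.8 CPM. Lyrm1 and Hopxos were called higher in lung with or without this library.

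The B6xC3H library was the highest for Nhlrc1, at 161 CPM against at most 47.6 CPM. The B6xSPRET library of replicate 2 was the highest for Akap5, at 105 CPM against at most 86.4 CPM, and the lowest for Fpgs, at 19.8 CPM against 47.1 CPM or more.

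The other cases rest on 1 count where the remaining lung libraries were at 0. These were Alb at 1.98 CPM in B6xSPRET replicate 2, Cps1 at 1.94 CPM in B6xSPRET replicate 3, and Gm44588, Ahsg and Kap at 1.96 CPM in B6xC3H.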

How the results depend on the processing

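Of the values of named genes under alternatives, 2542 kept their direction and side of the threshold, 63 became called, 55 lost the call and 1 reversed, Tagln with limma on log2(TPM + 1) at 0.817. Against the mean of the other tissues, leaving the 10 highest genes out of the library sizes gave 2094 higher and 252 lower genes, no filter on low counts 3839 and 495, limma 2112 and 345, and the 13 other tables as 1 group 458 and 197. In the same order of the first 3 settings, genes higher than in liver numbered 2662, 2819 and 3064, and genes higher than in kidney 1753, 1658 and 1758. Lower genes numbered 415 and 322 against liver and 471 and 384 against kidney without the 10 highest genes and with limma. No filter gave 3476 genes higher than in B cells. Genes higher than in each tissue numbered 722, 855 and 687 under these 3 settings. CPM without TMM, a setting chosen after seeing the data, gave 676 lung-high genes, 431 of them among the 435. Gene bodies in place of exons gave 83.9% with an opposite gene. Lung hotspots at opposite starts were at 94.9% with all transcript starts and 79.3% with the 75000 highest-scoring hotspots, and at own starts at 62.7% within 1 kb and 57.1% with the 75000 hotspots. The cause of these changes was not tested. Leaving out 1 table at a time gave 1218 to 1739 higher and 521 to 756 lower genes against the mean, 1298 to 1757 and 760 to 970 against liver, 882 to 1257 and 715 to 924 against kidney, and 1243 to 1691 and 1014 to 1204 against B cells, with 436 to 637 higher than each and 431 to 533 lung-high genes. The labels give no replicate numbers, so samples were matched only by hybrid. With the hybrid as a replicate block, 1377 genes were higher and 805 lower.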
